A study of Ambystoma mexicanum with 8 samples.

Results

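Cycling epidermal cells of the axolotl limb were described from single-cell RNA counts. A cell was taken as epidermal when it held at least 10 UMIs (transcript molecules) of the keratins KRT5 and KRT12 and at least 3 UMIs of EPCAM, CDH1 and DSP, which encode proteins of epithelial contacts. It also had to hold fewer than 2 UMIs of CD3E and CD3G and less than 20% haemoglobin transcripts. Cells that also held at least 2 UMIs of MKI67 and TOP2A, genes of dividing cells, were called cycling, so the members were chosen by the measured counts of these 4 groups of genes and of haemoglobin, and those genes are given without a test. The rule found 518 cycling cells among 7447 epidermal cells and 35013 cells in all. The samples were wild-type limb tissue of Ambystoma mexicanum. Intact limbs gave 3 samples (numbers 1, 2 and 4), and contra limbs, taken 14 days after amputation, gave 4 (numbers 1, 2, 4 and 5). The series text calls its limbs homeostatic or systemically activated, and the labels give no age, sex or animal number. The labels do not say that samples came from separate animals, so p-values measure only the spread between these samples. Intact sample 5 was not analysed here. Live cells with 2C DNA content were sorted, a fraction that the protocol calls non-dividing and the series text calls dividing.

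The vertebrate epidermis is renewed by division of keratinocytes. Before division a cell licenses replication origins and copies its DNA in S phase, with E2F factors driving many of the genes needed. In G2 and mitosis, cyclins bound to CDK1, the Aurora and Polo kinases and the spindle motors condense, align and part the chromosomes. TOP2A, a topoisomerase that untangles DNA, is made mostly in S phase, G2 and mitosis. In the axolotl, amputation of a limb is known to bring cells of distant limbs into the cell cycle.

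The members rested on TOP2A. They held 4684 TOP2A UMIs and 67 MKI67 UMIs, and 50 of the 518 cells had an MKI67 UMI. A separate gene model named MKI67.S was not used by the rule. MKI67.S was detected in 514 members (99.2%), with a median of 12 UMIs a cell, and in 86.1% of non-cycling epidermal cells, with a median of 2. Its level ran from 419 to 567 CPM (counts scaled to a common library total) over the 7 samples in cycling cells and from 117 to 161 CPM in non-cycling cells. The median of KRT5 and KRT12 UMIs a cell was 974 in members and 985 in non-cycling epidermal cells. For EPCAM, CDH1 and DSP the medians were 53 and 40 UMIs. These counts were not scaled to the depth of the cells. Members held more UMIs, with a median of 26396.5 a cell against 21500 in non-cycling epidermal cells of the same libraries. A doublet score of 0.25 or more was found in 1.16% of members and 0.505% of non-cycling epidermal cells.

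The libraries held 4367 to 5775 cells and 97977234 to 133670940 UMIs each, and the cycling epidermal cells 371912 to 4987998 UMIs a sample. Cell barcodes shared between libraries were found for 236 of 35013 cells (0.674%) and for 4 members. As a check on free RNA, cells with at least 80% haemoglobin transcripts met the cut of 2 MKI67 and TOP2A UMIs in 5.18% of 5094 cells at a median of 31062 UMIs. CD79B cells met it in 5.62% at a median of 12172 UMIs and epidermal cells in 6.96% at a median of 21836 UMIs. None of these classes is known to lack TOP2A, so the share due to free RNA was not tested. Markers of other cells were compared as summed CPM in the members. T cell markers ran from 8.36 to 20.1 CPM in 6 samples and reached 85.1 CPM in contra 2. That list includes CD3G, which the rule itself kept low in members, so its sum was partly set by the rule. Fibroblast markers ran from 43.0 to 846 CPM with PRRX1 at 0, the highest again in contra 2, against 121 to 681 CPM in non-cycling epidermal cells. Macrophage markers ran from 662 to 1271 CPM against 738 to 1492 CPM in non-cycling cells. B cell, erythroid, endothelial, muscle, melanocyte, neutrophil, mast cell and neural markers were each at 75.2 CPM or less. Of these, SOX10, TYRP1, CHGB and INSM1 were at 0. Melanocyte markers reached 23.3 CPM in the members of contra 5, against 0 to 2.16 CPM in those of the other samples and 5.47 CPM in non-cycling epidermal cells of contra 5.

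The share of epidermal cells that were cycling was lower in the contra samples. For intact numbers 1, 2 and 4 it was 8.96% (19 of 212 cells, exact binomial 95% interval 5.48 to 13.6), 10.4% (17 of 163, 6.19 to 16.2) and 9.91% (149 of 1504, 8.44 to 11.5). For contra numbers 1, 2, 4 and 5 it was 4.03% (11 of 273, 2.03 to 7.10), 3.78% (36 of 953, 2.66 to 5.19), 4.93% (79 of 1602, 3.92 to 6.11) and 7.55% (207 of 2740, 6.59 to 8.61). The shares of the groups did not overlap, although the counting interval of contra 5, up to 8.61, overlapped those of all 3 intact libraries. The interval of contra 1 overlapped those of intact 1 and intact 2, and that of contra 4 overlapped that of intact 1. Only the interval of contra 2 lay below all intact intervals. The contra mean was 5.07% ± 1.73 (SD, n = 4) and the intact mean 9.77% ± 0.744 (SD, n = 3), a difference of -4.69 percentage points. The two-sided exact permutation test over the 35 splits gave p = 0.0571, and the smallest p it allows is 0.0286. A cut of 1 UMI gave a difference of -7.65 percentage points with an exact permutation p of 0.0286, and the edgeR test on cell counts gave a log2 fold change of -0.81 with p = 0.0314. That edgeR fit held only the counts of cycling and of non-cycling cells, which add up to the epidermal cells of a sample. Its estimate of spread therefore rests on counts that depend on each other, which limits its p-value.

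The depth of the cells differed between the libraries. Epidermal cells held a median of 22612 UMIs a cell in contra samples and 28117 in intact samples (mean of sample medians, exact permutation p = 0.0857, n = 4 and 3). When every cell was thinned to 3000 UMIs and 1 UMI was asked for, the share was 5.19%, 2.45% and 6.25% for intact numbers 1, 2 and 4. For contra numbers 1, 2, 4 and 5 it was 2.56%, 2.41%, 4.43% and 5.66%. Those groups overlapped, with means of 3.77% ± 1.56 in contra and 4.63% ± 1.96 in intact (SD, n = 4 and 3, exact permutation p = 0.543). At the same cut of 1 UMI without thinning, the means were 12.6% in contra and 20.3% in intact, so thinning lowered the share in both groups as well as the difference. Within cells of 10000 to 40000 UMIs, a range chosen after seeing the data, the unthinned difference was -4.03 percentage points. The samples numbered 1 and 2 differed by -5.79 and those numbered 4 and 5 by -3.66 percentage points. T cells of the same libraries, cut in the same way, were cycling in 14.1% ± 3.58 of contra and 16.7% ± 7.19 of intact cells (SD, n = 4 and 3, exact permutation p = 0.600), with overlap. The log2 ratio of the epidermal to the T cell share, both unthinned, was -1.49 in contra and -0.69 in intact samples, a difference of -0.80 (exact permutation p = 0.0571, n = 4 and 3) with overlapping groups. Thinned to 3000 UMIs with 1 UMI asked for, the T cell share was 14.2% ± 4.18 in contra and 14.0% ± 6.39 in intact samples (SD, n = 4 and 3), with overlap. The ratio was not tested at equal depth.

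**Figure D1:**
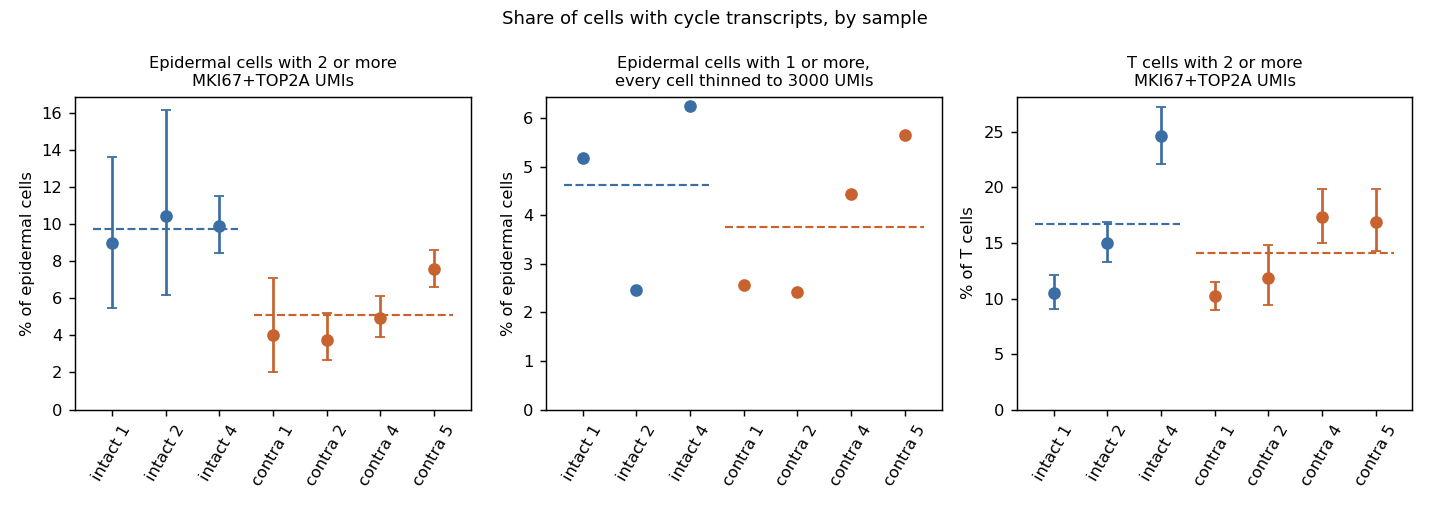
Share of cells with MKI67 and TOP2A transcripts in each sample, in percent of epidermal or T cells; points are samples, bars exact binomial 95% intervals and dashed lines group means. The 3 intact samples lie between 8.96% and 10.4% on the left and the 4 contra samples between 3.78% and 7.55%, while the groups overlap after thinning and in T cells.

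More members stood out for G2/M transcripts than for S phase transcripts. Because TOP2A in these same cells chose the members, this order describes the cells of the rule and not all dividing epidermal cells. The lists also differ in UMIs a cell, so counts of cells above their lines are not like for like. The sort kept 2C cells, a gate meant to leave out cells with replicated DNA, and how these transcripts relate to the gate was not tested. The lists of 44 S phase genes and 54 G2/M genes leave out MKI67 and TOP2A and were compared after drawing 10000 UMIs from each cell. The 512 members deep enough had a median of 17 S phase and 59 G2/M UMIs, and 6671 non-cycling cells had 5 and 20. Taking the 95th percentile of non-cycling cells as a line, 263 members (51.4%) lay above it for G2/M alone, 174 (34.0%) for both lists, 21 (4.10%) for S phase alone and 54 (10.5%) for neither. G2/M alone was the largest class in the 3 intact libraries and in contra 2 and contra 5, it was level with both lists in contra 1 (4 cells each), and both lists led in contra 4 with 36 against 34 of 79 cells. Across the 512 cells the Spearman correlation between the lists was 0.00495, given as a description.

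Cells at the edge of the rule were intermediate. Epidermal cells with 1 MKI67 or TOP2A UMI, just outside, numbered 642 and had a thinned median of 7 S phase and 23 G2/M UMIs. Cells with 2 UMIs, just inside, numbered 108 and had 13 and 42. Cells with 10 or more numbered 179 and had 17 and 72, so the G2/M list went on rising with the UMIs of the rule while the S phase list was level from 3 UMIs onward at 17 to 18.

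**Figure D2:**
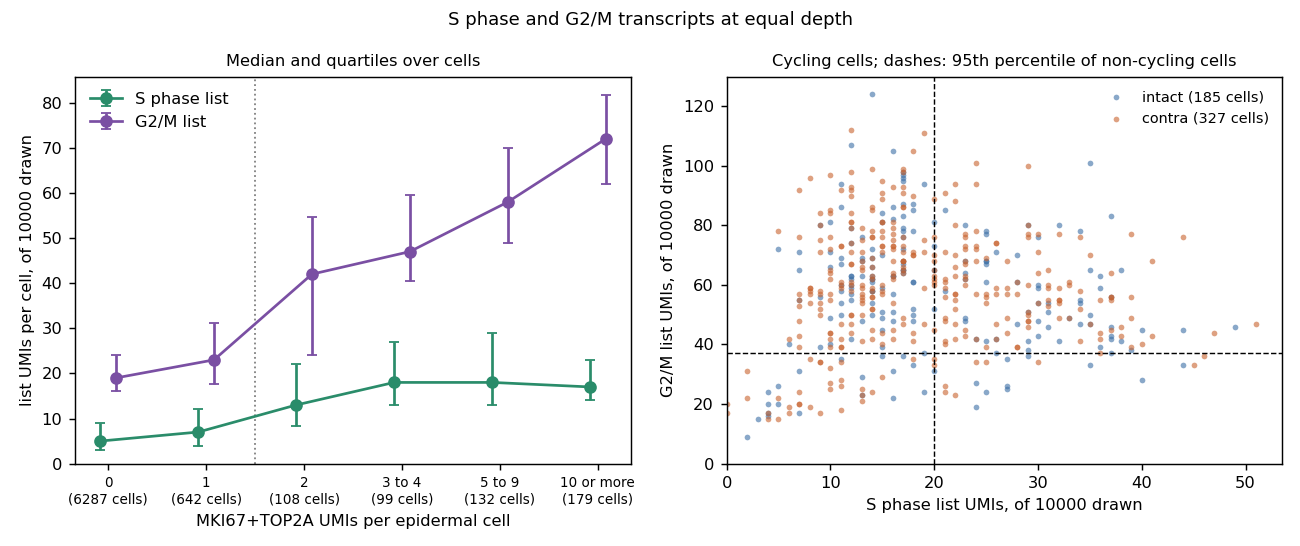
Left: UMIs of the S phase and G2/M lists in 10000 UMIs drawn per epidermal cell, by MKI67 and TOP2A UMIs; points are medians, bars quartiles, and the dotted line marks the rule. Right: the same 2 lists in each of the 512 cycling cells; 263 cells lie above the dashed G2/M line at 37 UMIs alone, 21 above the dashed S phase line at 20 UMIs alone and 174 above both.

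Summed counts of cycling and non-cycling epidermal cells were then compared within each sample. Because TOP2A in these same cells set the classes, the comparison describes which transcripts went along with it. The edgeR quasi-likelihood test with sample as a block called 2810 of 13331 gene models at an adjusted p of 0.05 (21.1%), 1466 higher (11%) and 1344 lower (10.1%) in cycling cells. The median log2 fold change of all models was -0.001. Adjusted p-values below come from this test, and values are CPM over the 7 samples.

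DNA replication genes were higher in cycling cells. Of the origin licensing and replication fork list, 36 of 48 gene models passed the filter on low counts, 30 of them were called higher and 0 lower, and the median log2 fold change was 1.13. PCNA.L, the sliding clamp of DNA polymerase, ran from 128 to 234 CPM in cycling cells (median 188) and from 41.4 to 81.9 CPM in non-cycling cells (median 52.7). Its groups did not overlap, and the log2 fold change was 1.61 ± 0.11 SE (adjusted p = 4.66e-09). CLSPN, a sensor of stalled forks, rose by a log2 fold change of 2.83 ± 0.16 SE and MCM10, which helps activate the loaded helicase, by 2.73 ± 0.23 SE. Among the helicase subunits MCM7 rose by a log2 fold change of 1.11 ± 0.11 SE, while MCM2 ran from 15.6 to 35.9 CPM in cycling and 16.7 to 38.6 CPM in non-cycling cells (adjusted p = 0.539). GMNN, which in other vertebrates blocks relicensing, had medians of 96.4 CPM in cycling and 125 CPM in non-cycling cells (adjusted p = 0.0674).

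All 17 tested models of the nucleotide supply and chromatin assembly list, of 30, were called higher (median log2 fold change 1.33). TK1, which salvages thymidine, ran from 60.5 to 117 CPM (median 92.0) in cycling cells and from 2.51 to 7.82 CPM (median 5.47) in non-cycling cells. RRM2, a subunit of the enzyme that makes deoxynucleotides, ran from 131 to 219 CPM (median 159) against 7.53 to 21.6 CPM (median 16.5). The log2 fold changes were 3.88 ± 0.16 SE (adjusted p = 2.87e-12) for TK1 and 3.30 ± 0.16 SE (adjusted p = 1.83e-11) for RRM2. Of 6 tested E2F and related factors, 5 were called higher, led by the repressor E2F8 at a log2 fold change of 2.01 ± 0.19 SE. Of 15 tested DNA repair models, 13 were called higher, with BRCA1 at 2.98 ± 0.14 SE and RAD51AP1 at 2.87 ± 0.13 SE.

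Among cyclins and their kinases, 12 of 16 tested models were called higher and 1 lower. CDK1, the kinase of mitotic entry, ran from 32.0 to 63.2 CPM (median 52.9) in cycling cells and from 0.418 to 1.94 CPM (median 0.794) in non-cycling cells. The classes were far apart in every sample, with a log2 fold change of 5.31 ± 0.18 SE (adjusted p = 2.14e-13). Its partners CCNB3 and CCNA2 rose by 4.45 ± 0.11 SE and 4.05 ± 0.15 SE on the log2 scale. CCND1, the cyclin of G1 entry, went the other way in all 7 samples. CCND1 ran from 110 to 189 CPM (median 126) in cycling and from 167 to 231 CPM (median 209) in non-cycling cells, a log2 fold change of -0.73 ± 0.10 SE (adjusted p = 2.88e-05).

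Inhibitors and quiescence genes were split, with 3 of 13 tested models called higher, 3 lower and a median log2 fold change of 0.10. CDKN2C, a G1 kinase inhibitor, was at 24.2 to 55.7 CPM in cycling and 1.81 to 4.38 CPM in non-cycling cells, a rise of 3.81 ± 0.13 SE on the log2 scale (adjusted p = 1.62e-13). CDKN1B model AMEX60DD201006813.3 and CCNG2 were the other models called higher, at log2 fold changes of 0.34 ± 0.11 SE and 0.28 ± 0.09 SE. BTG1, an antiproliferative gene, fell in both models, by 0.80 ± 0.11 SE and 0.36 ± 0.11 SE on the log2 scale, and CCNG1 fell by 0.36 ± 0.12 SE. CDKN1A, the p53 target, had a log2 fold change of 0.06 ± 0.18 SE (adjusted p = 0.849).

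Mitosis genes made up most of the largest differences. All 19 tested models of mitotic kinases, the chromosomal passenger complex and mitotic exit were called higher (of 24, median log2 fold change 3.22), as were all 31 tested models of spindle motors and cytokinesis (of 42, median 3.37). The kinetochore and checkpoint list had 20 of 23 tested models higher and 0 lower (median 2.09). The condensin, cohesin and chromosome structure list had 24 of 26 higher (median 1.26), and 1 of 4 HMGB2 models lower. AURKA, the Aurora kinase of the spindle poles, ran from 43.2 to 61.3 CPM (median 52.3) against 0.418 to 2.03 CPM (median 1.21). UBE2C, the ubiquitin carrier of mitotic exit, ran from 134 to 335 CPM (median 186), highest in intact 1, against 3.76 to 8.87 CPM (median 7.44). Their log2 fold changes were 5.20 ± 0.17 SE (adjusted p = 1.43e-13) and 4.75 ± 0.12 SE (adjusted p = 5.15e-15).

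The model with the largest called change by the rule for named genes was CDCA3, which in other vertebrates helps degrade WEE1, with medians of 23.6 CPM and 0.434 CPM (log2 fold change 5.65 ± 0.21 SE). CKAP2L, KIF18A, KIF4A, KIF20A, TACC3 and both NUSAP1 models, all of spindle and midzone proteins, were between 4.57 and 5.38 on the log2 scale. PLK1, the Polo kinase, followed at 4.55 ± 0.18 SE. ZFP36L2.2.L, a model named for an RNA-binding protein, was also among these 15, with medians of 15.6 CPM and 0.559 CPM (log2 fold change 4.79 ± 0.21 SE, adjusted p = 4.94e-12).

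**Figure D3:**
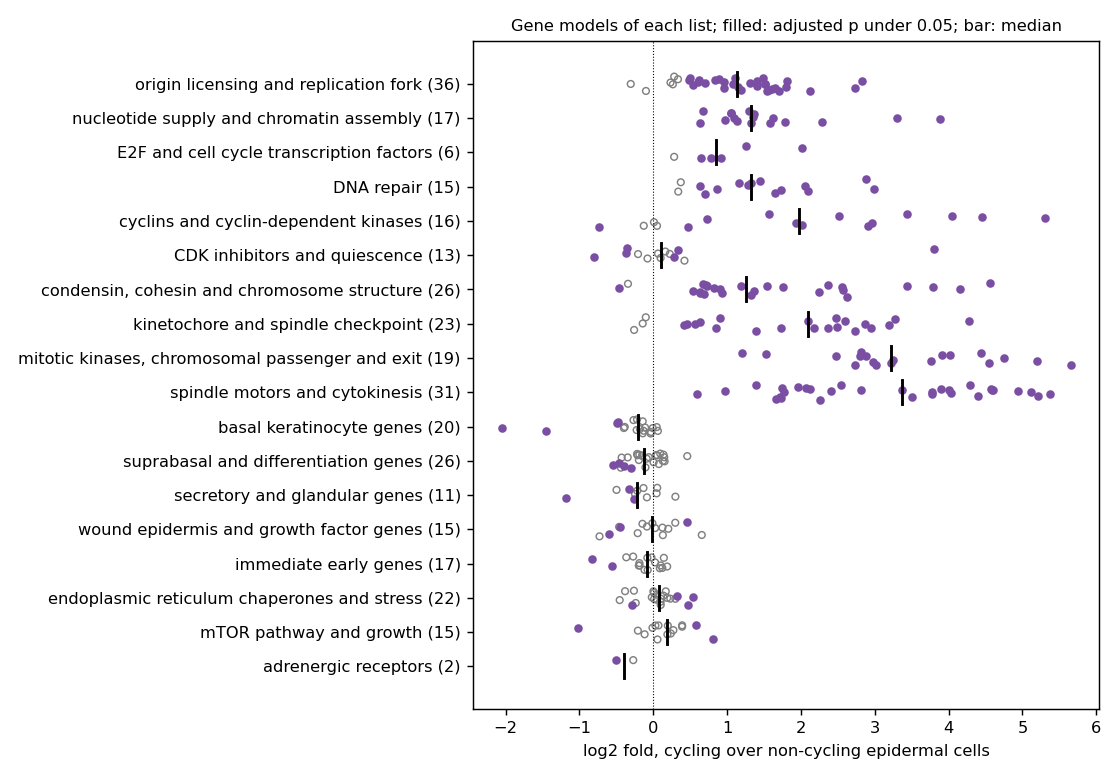
Log2 fold change of each tested gene model in cycling over non-cycling epidermal cells, by list, with the number tested in parentheses; filled points passed an adjusted p of 0.05 and bars are list medians. Spindle and kinase lists reach the highest medians (3.37 and 3.22), replication lists lie near 1, and keratinocyte lists lie near 0.

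Most tested models of the keratinocyte lists were not called, and those called in the basal and suprabasal lists were lower. Over all models 10.1% were called lower and 11% higher. Both classes had to pass the same floors of KRT5, KRT12, EPCAM, CDH1 and DSP, so their likeness was partly set by the rule. TP63, the master regulator of basal keratinocytes, ran from 37.6 to 121 CPM (median 88.2) in cycling and from 57.9 to 87.9 CPM (median 78.1) in non-cycling cells. These ranges overlapped (log2 fold change 0.06 ± 0.12 SE, adjusted p = 0.780). Of 20 tested basal keratinocyte models, 4 were called lower and 0 higher (median log2 fold change -0.20), among them ITGB4, LAMA3 and 1 of 3 tested KRT15 models. ITGB4 and the laminin chain LAMA3 belong to the anchorage of basal cells. ITGB4 was low in both classes, at 0 to 3.61 CPM against 2.77 to 13.1 CPM (log2 fold change -1.45 ± 0.31 SE). The abundant KRT15 model AMEX60DD102010103.2 was at 2097 to 4660 CPM against 2711 to 4258 CPM (log2 fold change -0.23 ± 0.11 SE, adjusted p = 0.146), and the model called lower, AMEX60DD102038192.4, was at 0 to 3.81 CPM against 0.555 to 21.8 CPM. Of 26 suprabasal models 4 were lower and 0 higher (median -0.13), among them EVPL, a cornified envelope protein, at -0.40 ± 0.08 SE, and 1 of 5 tested CLDN4 models at -0.54 ± 0.09 SE. Of 11 secretory models 3 were lower: AGR2, XBP1 and 1 of 3 FCGBP models, the last at 18.5 to 293 CPM against 58.8 to 315 CPM (log2 fold change -1.19 ± 0.18 SE).

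Transcripts lower in cycling cells changed less than those that were higher. Of the called models, 1001 were higher and 568 lower in all 7 samples. PLK2, a Polo-like kinase of G1, ran from 33.5 to 69.7 CPM (median 46.7) in cycling and from 69.7 to 141 CPM (median 95.1) in non-cycling cells, lower in every sample by 1.18 ± 0.09 SE on the log2 scale (adjusted p = 1.64e-08). YPEL5, which in mammals is part of a ubiquitin ligase complex, was at 8.20 to 19.5 CPM against 15.1 to 29.0 CPM. DHX58, an RNA sensor of the antiviral response, was at 11.5 to 62.6 CPM against 23.3 to 87.0 CPM. CCN1, a matrix protein, and GNMT, a glycine methyltransferase, also fell, by 1.00 ± 0.20 SE and 1.16 ± 0.19 SE on the log2 scale. The 2 largest decreases among the named genes were of low transcripts. UMOD model AMEX60DD201005693.5, 1 of 24 models with that name, was at 0 to 10.8 CPM against 7.56 to 109 CPM, and MYL1, a myosin light chain of muscle, at 0 to 7.35 CPM against 3.26 to 30.6 CPM. CKM and TNNT3, the muscle markers tested, were lower too, and the muscle marker sum was 1.39 to 8.86 CPM in cycling and 4.16 to 28.3 CPM in non-cycling cells. The part of free or mixed muscle RNA in these values was not tested.

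MYC fell in all 7 samples, at 21.0 to 32.3 CPM (median 25.6) in cycling and 28.8 to 42.0 CPM (median 34.4) in non-cycling cells (log2 fold change -0.56 ± 0.09 SE, adjusted p = 0.000332). With EGR2 it made up the 2 lower models of 17 tested immediate early genes, of which 0 were higher (median log2 fold change -0.08). Over all models 11% were called higher and 10.1% lower. The list counts in this paragraph cover few models and are not read as results about the lists. In the mTOR list 2 of 15 tested models were higher and 1 lower (median 0.19). EIF4E, the cap-binding translation factor, was at 54.4 to 69.9 CPM in cycling and 29.7 to 49.7 CPM in non-cycling cells without overlap (log2 fold change 0.58 ± 0.10 SE, adjusted p = 0.000245), and ULK1, the autophagy kinase, was lower at -1.02 ± 0.24 SE. Of 22 endoplasmic reticulum models 3 were higher and 1 lower (median 0.08). Of 15 tested wound epidermis models SP6 was higher, PDGFA and MMP13 were lower, and the median was -0.01. PECAM1, the endothelial marker tested, was higher, at 5.84 to 19.5 CPM against 3.76 to 5.55 CPM (adjusted p = 0.000557), the highest value being that of contra 2.

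**Figure D4:**
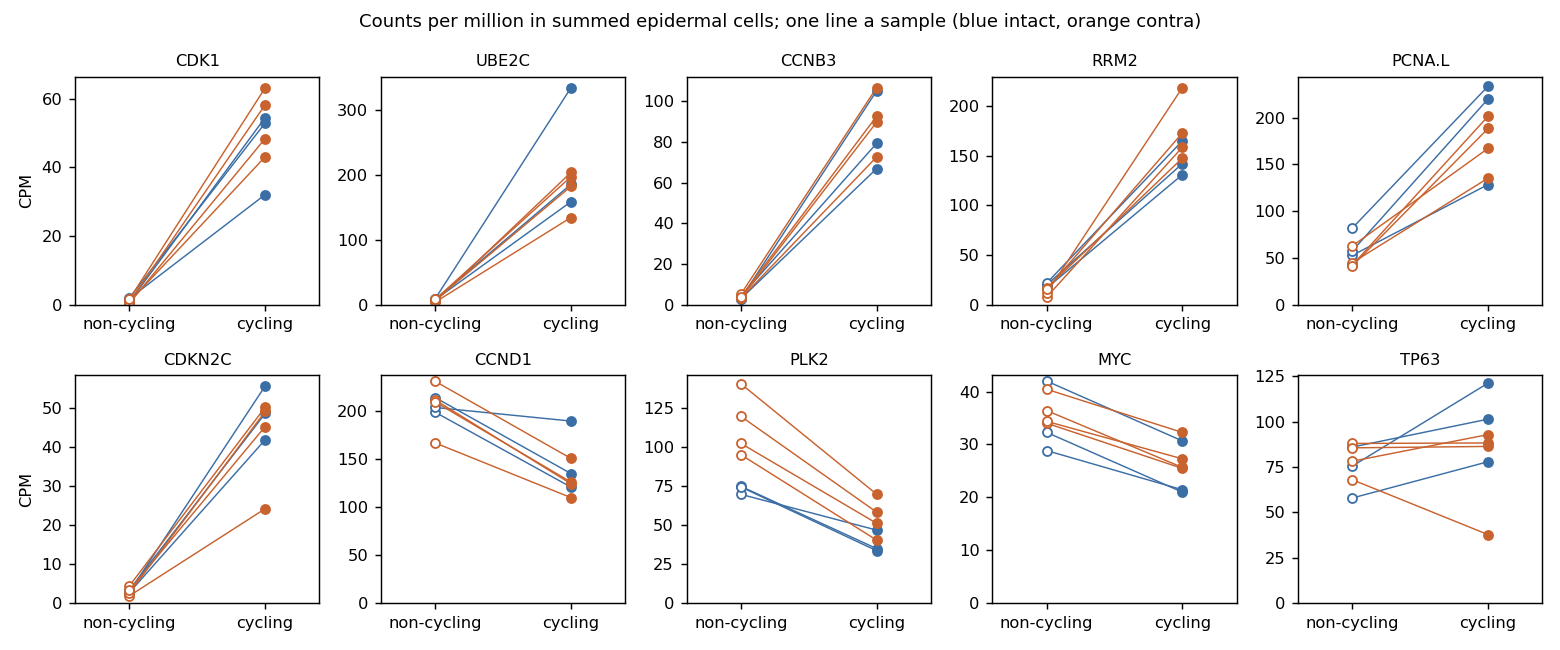
CPM of 10 genes in summed non-cycling and cycling epidermal cells; each line joins the 2 classes of a sample, blue for intact and orange for contra. CDK1, UBE2C, CCNB3, RRM2, PCNA.L and CDKN2C rise in all 7 samples, CCND1, PLK2 and MYC fall in all 7, and TP63 overlaps.

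Within cycling epidermal cells no gene passed the test between contra and intact samples. The edgeR test called 0 of 7751 gene models (0%), with 222 models at an unadjusted p under 0.05 (2.86%), and DESeq2 called 0 with 119. The groups did not overlap for 417 models (5.38%), contra being higher in 191 (2.46%) and lower in 226 (2.92%). In data simulated for this comparison the test found 40% of genes changed by 1 log2 unit and 89% of those changed by 2. The changed genes were drawn only from models above a floor on the mean count, so these shares do not cover tested models with lower counts. The S phase list summed to 1419, 1895 and 2221 CPM in the intact libraries and to 1804, 1615, 2105 and 1927 CPM in the contra libraries, in the order of their numbers, so the groups overlapped. The G2/M list summed to 6178, 5102 and 5582 CPM in the intact and to 5025, 6075, 6007 and 5917 CPM in the contra libraries, again with overlap. The means were 1863 ± 206 and 1845 ± 403 CPM for S phase (exact permutation p = 0.971) and 5756 ± 491 and 5621 ± 539 CPM for G2/M (exact permutation p = 0.686), contra first (SD, n = 4 and 3). In cells with 5 or more MKI67 and TOP2A UMIs the G2/M list was 450 CPM higher in contra (exact permutation p = 0.0286), the smallest p the test allows. That cut was an alternative among several and left only 6 cells in contra 1, 7 in intact 2 and 10 in intact 1.

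**Figure D5:**
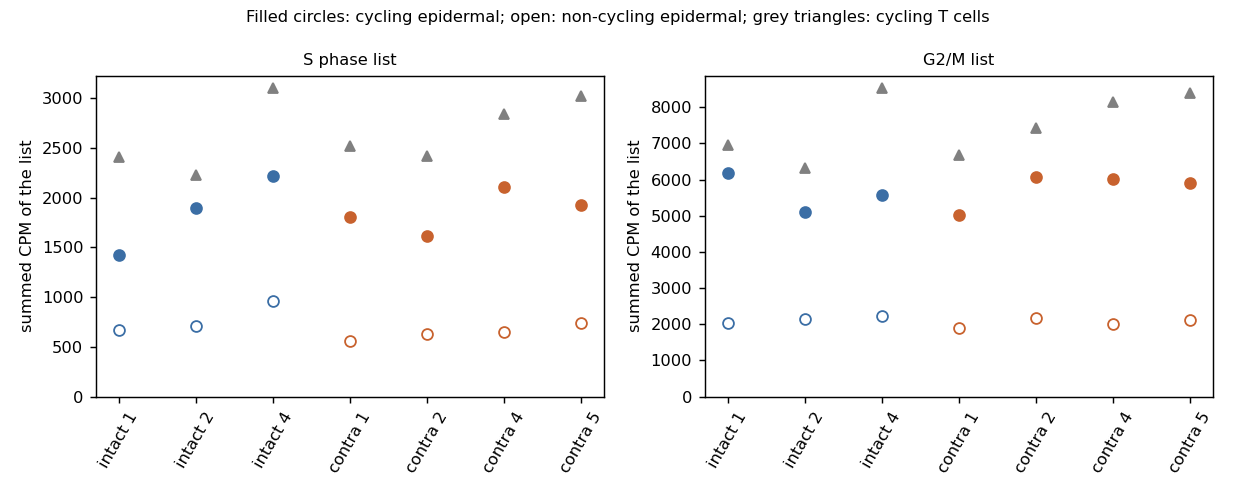
Summed CPM of the S phase and G2/M lists in each sample, in cycling and non-cycling epidermal cells and in cycling T cells. Cycling epidermal cells lie above non-cycling cells and below cycling T cells in all 7 samples, and intact and contra samples overlap.

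The models with the lowest unadjusted p, none past the adjusted test (adjusted p = 1.000 by edgeR for each), are given as values. ASPM, a spindle pole protein, was at 152, 124 and 177 CPM in intact and 223, 256, 218 and 223 CPM in contra samples, and the groups did not overlap. HSPD1, the mitochondrial chaperonin, was at 237, 174 and 156 CPM in intact and 124, 102, 103 and 128 CPM in contra samples, also without overlap. Their log2 fold changes were 0.56 ± 0.16 SE and -0.75 ± 0.18 SE. The other 4 with positive values were ATP12A, SLC4A1, EHD2 and ZNFX1, and others with negative values included RPL10A, PIK3R3 and TGM6. SLC4A1, the anion exchanger of red cells, was at 0.648 to 7.79 CPM in intact and 5.38 to 15.04 CPM in contra cells, and erythroid markers summed to 7.99 to 65.5 CPM in intact and 16.1 to 75.2 CPM in contra cells. Immediate early genes had a median log2 fold change of -0.29 over 16 tested models, 4 of them positive, and endoplasmic reticulum genes -0.24 over 21, 3 positive, against 0.01 over all genes; 0 of either list were called. Earlier results of these data had shown lower S phase and G2/M levels over all epidermal cells of contra samples, which hold these same cells, so the cycling share gives no independent support to them.

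The difference between cycling and non-cycling cells was also compared between contra and intact samples. The interaction test called 0 of 15229 models (0%), with a smallest adjusted p of 0.0559 (CTSV, edgeR), 481 models at an unadjusted p under 0.05 (3.16%) and 0 called by DESeq2. Models of several lists were mostly positive, with 0 past the test. A positive value is a higher log2 ratio of cycling to non-cycling cells in contra samples. It can be a larger rise, a smaller fall or a lower level in non-cycling cells. HYOU1, of the endoplasmic reticulum list, was at 37.0 to 55.3 CPM in intact and 14.5 to 29.6 CPM in contra non-cycling cells. In cycling cells HYOU1 was at 32.0 to 49.7 CPM in intact and 25.6 to 51.1 CPM in contra samples. Models of a list are not independent of each other. The non-cycling class also differed between the groups. Cells with 1 MKI67 or TOP2A UMI averaged 10.5% of epidermal cells in intact and 7.54% in contra samples. Such cells had a thinned median of 23 G2/M UMIs, against 19 in cells with 0. The part of this in the list values was not tested. Of 61 tested G2/M models 53 were positive, with a median log2 difference of 0.55, and 21 had an unadjusted p under 0.05. All 19 mitotic kinase and exit models were positive, with a median of 0.58, against a median of 0.03 over all genes. Of the S phase list 37 of 44 were positive (median 0.31), of the licensing and fork list 32 of 38 (median 0.21), and of the endoplasmic reticulum list 21 of 22 (median 0.35). For the G2/M list sum, cycling cells were 2.37 to 3.04 times as high as non-cycling cells in intact samples. In contra samples they were 2.66 to 3.01 times as high, and the groups overlapped. For the S phase list sum the ratios were 2.11 to 2.66 in intact and 2.58 to 3.24 in contra samples, also with overlap.

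Cycling T cells served as the nearest other dividing cells. The same cut of 2 UMIs was applied to cells of unlike depth. Median UMIs a cell were 20443 in cycling and 11419.5 in non-cycling T cells, against 26396.5 and 21500 in epidermal cells. The part of depth in the differences below was not tested. Both phase lists summed higher in cycling T cells than in cycling epidermal cells in all 7 samples, at 2223 to 3097 CPM for S phase and 6309 to 8536 CPM for G2/M. Below, larger and smaller refer to the signed log2 fold change of cycling over non-cycling cells. The interaction test of the cycling difference between epidermal and T cells called 2255 of 16726 models (13.5%), 1509 larger (9.02%) and 746 smaller (4.46%) in epidermal cells, and 27.8% had an unadjusted p under 0.05. Its centre depended on the scaling: the median of all genes was 0.15 with TMM, and DESeq2 size factors, with a median of 0.05, split the calls into 892 and 1191. Leaving out a sample other than intact 4 gave 274 to 464 larger and 1731 to 2014 smaller. List values are therefore given relative to the median of all genes.

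On that scale the replication lists stood lower in epidermal cells, and of the mitosis lists the kinase and spindle lists stood higher while others lay near the centre. The S phase list stood at -0.40 relative to the centre with TMM and with DESeq2 size factors, with 2 models called larger and 9 smaller of 45 under TMM and 1 and 15 under size factors. Mitotic kinases stood at 0.43 under both, with 7 larger and 1 smaller of 19 and, under size factors, 6 and 1. Spindle motors and cytokinesis stood at 0.31, with 10 larger and 2 smaller of 36. The G2/M list stood at 0.098, kinetochore genes at 0.084, and condensin and cohesin genes at 0.022, all with TMM. MCM3, a helicase subunit, was at 112 CPM in cycling and 34.0 CPM in non-cycling T cells and at 39.5 and 26.3 CPM in epidermal cells (mean CPM, difference in log2 fold change -1.05, adjusted p = 0.000739 by edgeR). GMNN was at 64.6 CPM in cycling and 21.2 CPM in non-cycling T cells and at 95.8 and 111 CPM in epidermal cells (difference -1.75, adjusted p = 9.18e-07 by edgeR). CKAP2, a spindle protein, was at 20.004 against 1.22 CPM in epidermal and 3.21 against 0.651 CPM in T cells (difference 1.80, adjusted p = 0.000575 by edgeR). Endoplasmic reticulum genes stood at -0.65 relative to the centre, with 0 larger and 8 smaller of 22 (0 and 10 under size factors). HSPA5, the main chaperone of that compartment, was at 186 and 81.5 CPM in cycling and non-cycling T cells and at 273 and 216 CPM in epidermal cells.

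Among the 10 largest positive differences were genes of T cells and fibroblasts at low epidermal levels. CD28 was at 10.3 CPM in contra 2 cycling epidermal cells and at 0 to 1.94 CPM in the other samples, and COL3A1 at 162 CPM in contra 2, 34.1 CPM in contra 5 and 0 to 3.46 CPM elsewhere. In cycling and non-cycling T cells CD28 averaged 31.3 and 52.2 CPM, and COL3A1 1.25 and 5.27 CPM, so the T cell side also enters these differences. SMIM22 had the largest difference (4.02), yet averaged 12.6 CPM in cycling and 15.7 CPM in non-cycling epidermal cells, against 0 and 0.310 CPM in T cells. Of 8 T cell markers tested 5 were called larger, and 3 without contra 2. The largest negative differences included FAM83D, which in mammals helps chromosomes align, at 37.6 to 58.7 CPM in cycling epidermal cells, 13.2 CPM on average in non-cycling ones, and 15.9 and 0.393 CPM in cycling and non-cycling T cells (difference -3.48 ± 0.32 SE, adjusted p = 2.71e-08 by edgeR).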

How the data were processed

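The authors deposited 1 matrix of raw counts (UMIs for each cell and gene model), with sample names in the cell names (61014 gene models, 22851 with a symbol). Libraries were 10x 3' v3.1, per the labels' protocols. The submitters' processing notes name kallisto 0.48.0 and Seurat 4.2.0 without a role, and the genome build is not given in the sources used here. Symbols are those of the files, several models can share a symbol, and their counts may be split between near-identical copies. No gene position or sequence is given. The members and gene lists were chosen with earlier results of these data known.

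Raw counts were summed per sample and class (at least 10 cells, or 5 in the stricter cut and the depth range) and tested with edgeR 4.0.16 (quasi-likelihood, TMM, filterByExpr, Benjamini-Hochberg at 0.05), with DESeq2 1.42.0 as an alternative. The edgeR fits were tested on simulated data. Where cycling and non-cycling cells were compared, sample was a block. Values of 1 number per sample went through the exact permutation test. Doublets were scored per sample with Scrublet (scanpy 1.11.5, expected rate 5%) and kept, and thinning drew UMIs without replacement. Intervals are exact binomial and cover counting error only. T cells held at least 2 CD3E and CD3G UMIs and stayed under both epidermal floors.

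Named genes were, for cycling against non-cycling cells, the 15 with the largest fold in each direction among called genes that moved alike in every sample and reached 10 CPM. For the other comparisons they were the 10 largest called in each direction, or the 5 with the lowest p where fewer than 5 were called, plus members of the lists. Some of these genes are not reported here. Alternatives were the tool, scaling, low-count filter, cut, doublets, depth, replicate block and each sample left out.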

Additional observations from a re-analysis of the deposited data

Results flagged for a closer look

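In 71 sets of 4 contra values, 8 had a sample far from the other 3 by Dixon's test at 95%. For independent normal values that test flags about 1 in 20 sets by chance. Some sets here are counts near 0, and most are genes named from these same data. The number flagged can therefore not be set against that rate. The G2/M list of cycling epidermal cells summed to 5025 CPM in contra 1, which has 11 such cells, and to 5917 to 6075 CPM in the other contra samples. ASPM was at 256 CPM in contra 2 against 218 to 223 CPM, and NUSAP1 model AMEX60DD301011911.1 at 38.0 CPM in contra 4 against 34.9 to 35.3 CPM. GP2 was at 16.1 CPM in contra 1 against 2.16 to 4.21 CPM, and NOS2 at 12.2 CPM in contra 5 against 0 to 2.05 CPM. UMOD model AMEX60DD201005690.3 was at 0.200 CPM in contra 5 and 0 in the others. CD28 was at 10.3 CPM in contra 2 against 0 to 0.401 CPM, and ITGAE at 4.10 CPM in contra 2 and 0 in the others.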

How the results depend on the processing

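The lower cycling share of contra samples kept its direction in every alternative, from -5.52 to -4.26 percentage points with a sample left out. Its size did not hold in all of them. With every cell thinned to 3000 UMIs the difference was -0.86 percentage points (exact permutation p = 0.543). With a cut of 5 UMIs it was -1.73 (exact permutation p = 0.0857). The share difference passed 0.05 with a cut of 1 UMI (-7.65) and in edgeR on cell counts (log2 -0.81), a fit limited as stated above. The same-numbered pairs, as a replicate block, gave -5.52. Sample numbers were not taken as pairs: same-number correlations of deviations were -0.058, 0.0069 and 0.017. The S phase difference of 17.9 CPM turned to -27.4 with TMM-scaled CPM, -3.45 with the replicate block and -205 with numbers 4 and 5 only, and ran from -195 to 206 with a sample left out (below 0 without intact 1, -195, contra 4, -62.9, or contra 5, -3.45). The G2/M difference of 135 CPM turned to -29.0 with TMM-scaled CPM and -89.9 with numbers 1 and 2 only, was 450 in the stricter cut, and ran from -124 (without intact 2) to 414.

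Without a filter on low counts, calls between contra and intact went from 0 to 67 in cycling cells and from 0 to 39 for the interaction, those between cycling and non-cycling cells from 2810 to 4373 (1002 higher, 3371 lower), and those against T cells from 2255 to 1327. Cycling against non-cycling cells without the replicate block, sample left out of the model, gave 1455 (934 and 521), and 1845 to 3035 with a sample left out, lowest without intact 4. With a sample left out the other counts were 0 to 2, 0 to 25 (25 without intact 4) and, against T cells, 1236 to 2478 (lowest without intact 4). The block gave 0 calls between contra and intact. Of 450 values for the 30 genes named in cycling against non-cycling cells, 449 kept their direction and call, and MYL1 lost its call without the block. For the 20 genes named against T cells, 34 of 239 values lost their call. For the 10 genes named in the contra interaction, 16 of 117 values gained a call and 1 reversed. For the 10 named between contra and intact, 3 of 133 gained a call. UMOD model AMEX60DD201005690.3 ran from -8.43 without intact 1 to 1.41 without intact 4 in the contra interaction, against -7.19 with all samples. The cause of each was not tested. Contra 1 holds 11 members, which limits precision there. The splits by sample number, the range of 10000 to 40000 UMIs for the share, DESeq2 with the block and the minimum of 5 cells were chosen after seeing the data.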
